A study of Caenorhabditis elegans with 2 samples.

Results

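The mir-35 family of Caenorhabditis elegans comprises the 8 microRNA (miRNA) hairpins mir-35 to mir-42. Its members were taken by name from a table of mature miRNA loci, as every locus named cel-miR-35, cel-miR-36, cel-miR-37, cel-miR-38, cel-miR-39, cel-miR-40, cel-miR-41 or cel-miR-42 with either arm suffix. This gave 16 of the 375 loci in the table. The 5p and 3p arms are the strands cut from the left and right sides of a hairpin. The tested worms were whole animals of the wild-type strain N2 with age given as Day 1 that had received enoxacin, and the comparison worms were of the same strain and age and had received vehicle. Enoxacin is a fluoroquinolone antibiotic known to enhance small RNA processing in mammalian cells through the Dicer partner TRBP. Each group was represented by 1 small RNA library, and the sources used here state neither dose nor route of the compound. The submitters mention 3 independent experiments, without saying how these were distributed over the libraries.

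A miRNA guides an Argonaute protein to messenger RNAs through its seed, a short stretch near its 5' end, and miRNAs with a common seed act on overlapping targets. The mir-35 family is known for a seed common to its members, carried on the 3p arm, and for high levels in oocytes and embryos followed by rapid decay as embryogenesis ends. Worms that lack the whole family die as embryos, and members are known to act on programmed cell death, sex determination and fecundity. The mir-35 to mir-41 hairpins are known to be cut from a single transcript. mir-42 lies elsewhere on the chromosome, in a group with mir-43 and mir-44.

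The vehicle library was the deeper one. The totals behind the authors' RPM values (read counts scaled to the size of the library) were 8787665 reads for enoxacin and 10698845 for vehicle, of which miRNA loci took 332407 and 400555 reads. A single read was worth 0.114 RPM in enoxacin and 0.0935 RPM in vehicle. With 1 library per group no difference could be tested. Ratios of enoxacin to vehicle therefore carry exact 95% intervals for counting error alone. The reads carried no stated molecular identifiers and need not be independent molecules, so even counting error may exceed these intervals. The comparison took loci whose reads in the 2 libraries summed to 20 or more, and a locus counted as higher or lower if its interval excluded 1 at a change of 1.5-fold or more. In whole worms, fewer embryos and less miRNA per embryo cannot be told apart.

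The positions are those of the deposited table (build ce10). All 16 loci lie on the plus strand of chromosome II. The arms of mir-35 to mir-41 run from 11537565, the start of miR-35-5p, to 11538325, the end of miR-41-3p, a span of 761 nt that holds 7 hairpins. miR-42-5p starts 351436 nt further on, at 11889761, and the arms of mir-42, mir-43 and mir-44 span 280 nt. All 8 of the 3p arms are annotated with 22 nt, whereas the 5p arms range between 21 and 25 nt, and the arms of a hairpin are 16 to 21 nt apart. In the WBcel235 annotation, searched by hairpin name, mir-35 to mir-41 all lie within introns of the protein-coding gene Y62F5A.9, which is on the opposite strand. Short non-coding RNA genes on the same strand overlap mir-35 (Y62F5A.16), mir-36 and mir-37 (Y62F5A.14) and mir-39 (Y62F5A.15). An exon of the non-coding RNA gene ZK930.12, on the opposite strand, overlaps mir-42. The sources used here do not say whether the authors' counting used strand.

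The family was abundant in both libraries, and its total was slightly lower in enoxacin. Its 16 loci took 14.2% of miRNA reads in enoxacin (95% exact binomial interval 14.04 to 14.28%) and 15.1% in vehicle (15.02 to 15.25%). That was 47058 reads (5355 RPM) in enoxacin and 60623 reads (5666 RPM) in vehicle, a ratio of 0.945 (0.934 to 0.957). The ratio was below 1 under each scaling tried, at 0.935 when scaled by the sum of the miRNA table, 0.866 by the median of ratios and 0.860 by TMM (trimmed mean of M values). The last 2 scalings move every log2 ratio down, by 0.13 and 0.14, because the typical miRNA in the table was higher in enoxacin. The nonmembers together had a ratio of 1.02 (1.02 to 1.03).

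The 3p arms, which carry the seed of the family, held nearly all of its reads. miR-36-3p was the most abundant, with 22968 reads (2614 RPM) in enoxacin and 29018 reads (2712 RPM) in vehicle. It ranked number 4 among the 375 loci in enoxacin and number 3 in vehicle. miR-35-3p followed with 6488 reads (738 RPM) in enoxacin and 9938 reads (929 RPM) in vehicle. It was lower in the enoxacin library beyond counting error, although not by 1.5-fold.

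miR-39-3p, familiar in other fields as a synthetic spike-in control, had 5417 reads (616 RPM) in enoxacin and 6153 reads (575 RPM) in vehicle. miR-37-3p had 4024 reads (458 RPM) in enoxacin and 5943 reads (555 RPM) in vehicle. miR-38-3p had 3650 reads (415 RPM) in enoxacin and 4012 reads (375 RPM) in vehicle. The values of these 3 were of like size, with miR-37-3p lower in enoxacin and the other two higher in RPM, which for miR-39-3p did not hold under every scaling.

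miR-42-3p, from the separate group of hairpins, had 1954 reads (222 RPM) in enoxacin and 3012 reads (282 RPM) in vehicle. miR-40-3p had 1466 reads (167 RPM) in enoxacin and 1348 reads (126 RPM) in vehicle. The least abundant 3p arm was miR-41-3p, with 926 reads (105 RPM) in enoxacin and 954 reads (89.2 RPM) in vehicle. All 8 of the 3p arms held the same place in the order of abundance in both libraries, miR-36, miR-35, miR-39, miR-37, miR-38, miR-42, miR-40 and miR-41.

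**Figure D1:**
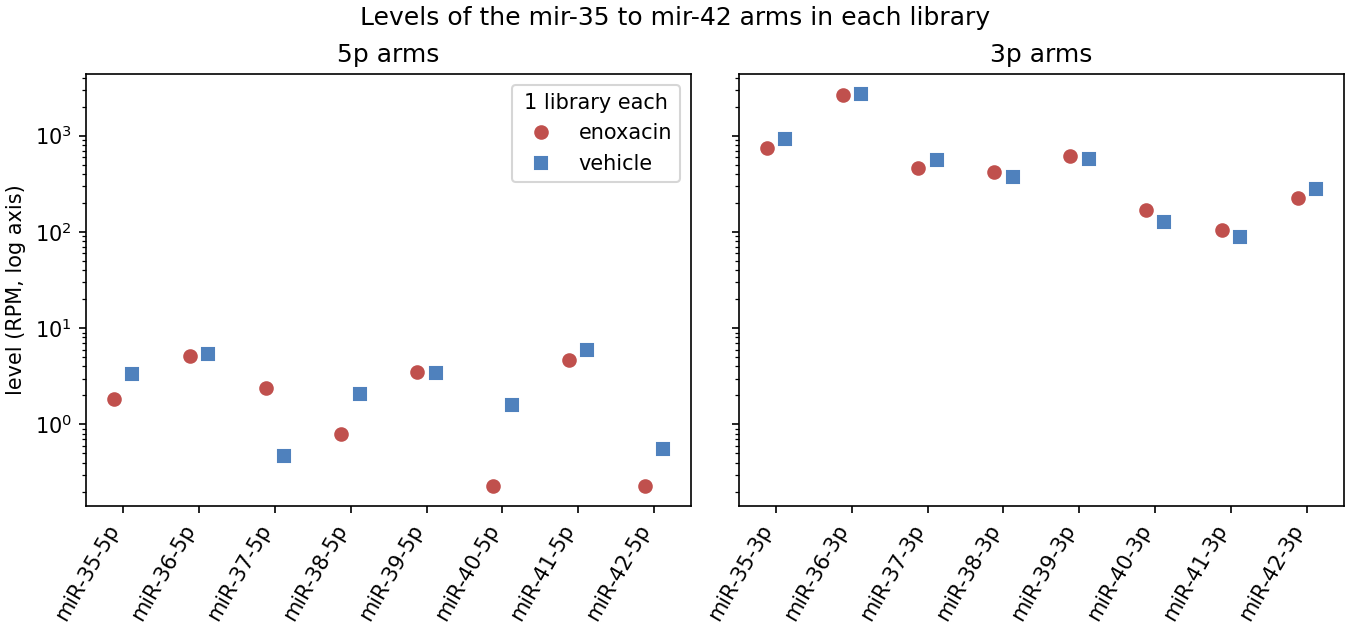
Levels (RPM, log axis) of the 8 hairpins' 5p arms (left) and 3p arms (right), with circles for the enoxacin library and squares for the vehicle library. The 3p arms lie between 89.2 and 2712 RPM and the 5p arms below 6 RPM, and there is 1 library per group, so no error bars are drawn.

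The members of the 7-hairpin cluster thus differed widely in level although they are known to share a transcript. The most abundant 3p arm of the family exceeded the least abundant by 24.8-fold in enoxacin and 30.4-fold in vehicle. miR-36-3p alone made up 49.0% of the family's 3p reads in enoxacin (48.5 to 49.4%) and 48.1% in vehicle (47.7 to 48.5%). The only neighbours in the order whose shares overlapped within counting error were miR-39-3p and miR-37-3p in vehicle, with 10.2% (9.95 to 10.4%) and 9.84% (9.61 to 10.1%). In enoxacin the same arms took 11.6% (11.3 to 11.8%) and 8.58% (8.33 to 8.84%). Levels of different miRNAs in a library also depend on how well each sequence is ligated and mapped, and the part of this in these levels was not tested.

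None of the 8 abundant 3p arms reached 1.5-fold, but their ratios stood apart from each other by more than counting error. miR-42-3p had the lowest ratio, 0.790 (0.746 to 0.836), beside miR-35-3p at 0.795 (0.770 to 0.820) and miR-37-3p at 0.824 (0.792 to 0.858). miR-36-3p was close to equal, at 0.964 (0.947 to 0.981). The remaining arms were above 1, miR-39-3p at 1.07 (1.03 to 1.11) and miR-38-3p at 1.11 (1.06 to 1.16). The ratio of miR-41-3p was 1.18 (1.08 to 1.29), and that of miR-40-3p was the highest, 1.32 (1.23 to 1.43). The intervals of 4 arms lay below 1 and those of the other 4 above it. Among the 39 nonmember loci with at least 1000 reads, 28.2% had an interval below 1 and 56.4% above it. Under median-of-ratios or TMM scaling miR-39-3p stood below 1 and the other 7 stayed on their side, but the intervals of miR-38-3p, miR-39-3p and miR-41-3p then included 1. Under these 2 scalings the interval of 1 arm, miR-40-3p, lay above 1, at 1.13 to 1.31 with the median of ratios and 1.12 to 1.30 with TMM, and those of the same 4 arms lay below it.

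**Figure D2:**
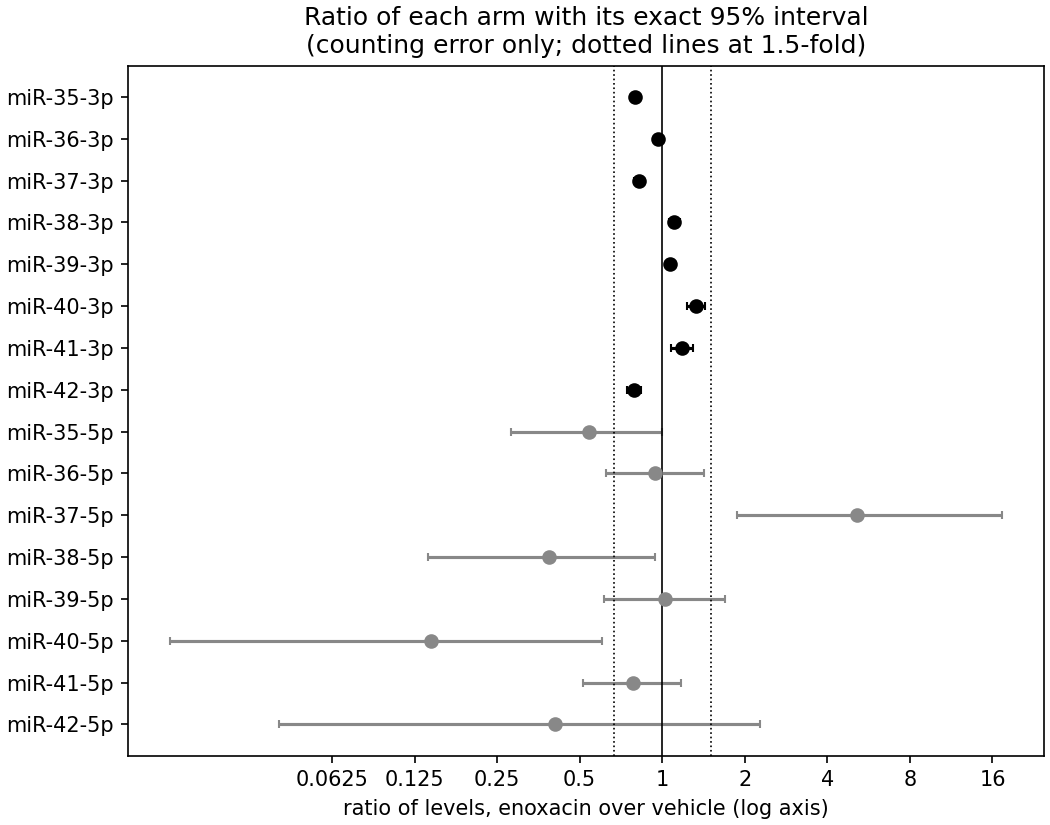
Ratio of the enoxacin level to the vehicle level (log axis) for the 8 members' 3p arms (black) and 5p arms (grey), with bars for the exact 95% counting interval, a line at 1 and dotted lines at 1.5-fold. The 3p ratios lie between 0.790 and 1.32 with narrow bars, and the 5p ratios between 0.143 and 5.11 with wide ones.

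A ratio of one member's ratio to another's needs no scaling between the libraries. Of the 28 pairs of 3p arms, 21 had an exact interval that excluded equal ratios, and 3 of these passed 1.5-fold. All 3 involved miR-40-3p. Its ratio was 1.67 times that of miR-35-3p (1.54 to 1.81) and 1.61 times that of miR-37-3p (1.48 to 1.75), and the ratio of miR-42-3p was 0.597 times that of miR-40-3p (0.543 to 0.656). By contrast, miR-42-3p and miR-35-3p, from separate loci, had nearly the same ratio, 0.994 of each other (0.931 to 1.06). miR-39-3p and miR-38-3p also did not differ beyond counting error, at 0.968 (0.913 to 1.03). The 28 pairs reuse the same few ratios and are not independent. Pairs of nonmember loci were not counted, so the 21 are not shown to be more than other abundant loci would give.

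Along the mir-35 to mir-41 cluster the ratios were lower at the 5' end and higher at the 3' end. The arms at positions 1 to 3 (miR-35-3p, miR-36-3p and miR-37-3p) had 33480 reads in enoxacin and 44899 in vehicle, a summed ratio of 0.908 (0.895 to 0.921). Those at positions 4 to 7 (miR-38-3p, miR-39-3p, miR-40-3p and miR-41-3p) had 11459 reads in enoxacin and 12467 in vehicle, a summed ratio of 1.12 (1.09 to 1.15). This division of the cluster was chosen after the values were seen. The second sum stood at 1.03 (1.00 to 1.05) under median-of-ratios scaling and at 1.02 (0.992 to 1.04) under TMM. Spearman's rho between cluster position and ratio was 0.89 over these 7 arms, which come from the same 2 libraries. Level moved with position too, with a rho of -0.86 between position and vehicle reads and of -0.79 between vehicle reads and ratio. Position and abundance therefore cannot be told apart here.

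**Figure D3:**
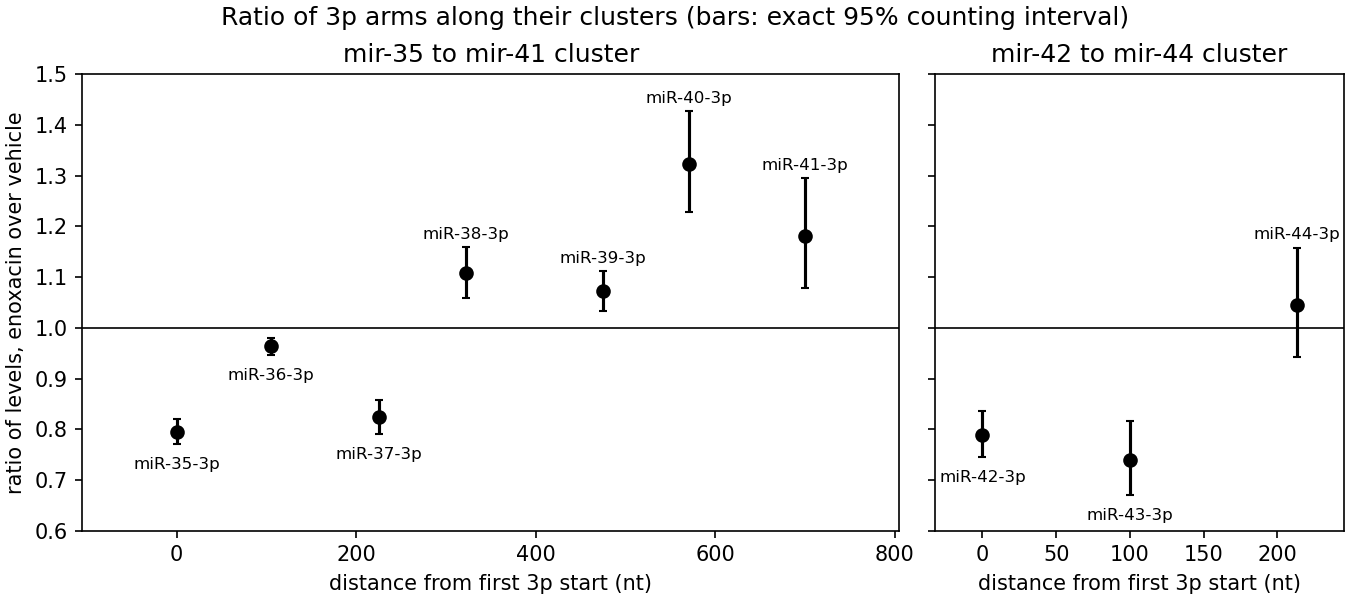
Ratio of the enoxacin level to the vehicle level for 3p arms by distance from the first 3p start (nt), for the mir-35 to mir-41 cluster (left) and the mir-42 to mir-44 cluster (right), with bars for the exact 95% counting interval. The first 3 arms of the left cluster lie below 1 and the other 4 above it, up to 1.32 for miR-40-3p, under scaling by the library totals (median-of-ratios and TMM scaling put miR-39-3p below 1).

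In the second group of hairpins, the neighbours of mir-42 were not alike either. miR-43-3p, which belongs to another seed family, had 652 reads in enoxacin and 1072 in vehicle, a ratio of 0.740 (0.671 to 0.817), close to the 0.790 of miR-42-3p. miR-44-3p, the last of the group, had 698 reads in enoxacin and 813 in vehicle, a ratio of 1.05 (0.943 to 1.16). It is known to share its mature sequence with miR-45-3p, so its reads are uncertain. The minor arms had few reads, with 11 in enoxacin and 31 in vehicle for miR-43-5p (0.432, 0.196 to 0.883) and 12 in enoxacin and 19 in vehicle for miR-44-5p (0.769, 0.340 to 1.67). Of these 4 loci, miR-43-5p counted as lower, as did 7.89% of all 152 loci compared. The median ratio of the 4, converted back from log2 ratios with a pseudocount of 0.5 reads as are all medians here, was 0.760.

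The 5p arms, the less used strands of the hairpins, made up 0.351% of the family's reads in enoxacin (0.299 to 0.408%) and 0.404% in vehicle (0.355 to 0.458%). They summed to 165 reads in enoxacin and 245 in vehicle, a ratio of 0.820 (0.669 to 1.003) that did not differ from 1 beyond counting error. Without miR-37-5p, left out after its value was seen, the ratio was 0.730 (0.590 to 0.902). The 3p arms together had a ratio of 0.946 (0.934 to 0.957).

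miR-37-5p was the single member that counted as higher. It had 21 reads (2.39 RPM) in enoxacin and 5 reads (0.467 RPM) in vehicle, a ratio of 5.11 (1.88 to 17.4). miR-38-5p was the single member that counted as lower, with 7 reads (0.797 RPM) in enoxacin and 22 reads (2.06 RPM) in vehicle, a ratio of 0.387 (0.140 to 0.939). Both rested on few reads, and their hairpins' 3p arms leaned the other way.

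Of the 14 members that reached 20 reads, 1 (7.14%) was thus higher and 1 (7.14%) lower. Over all 152 loci compared, 13.2% were higher and 7.89% lower, so the family's counts were not above those of the table. At any fold, intervals lay above 1 for 5 of the 14 members (35.7%) and below 1 for another 5 (35.7%). Over the 152 loci the shares were 32.2% above and 17.1% below. Intervals narrow with depth, and over the 39 nonmember loci with at least 1000 reads the shares were 56.4% above and 28.2% below. The median ratio of the 14 members was 0.955, against 1.09 over all 152 loci. It was 0.861 for the 6 compared 5p arms, which have few reads, and 1.02 for the 8 abundant 3p arms. Over the 39 nonmember loci with at least 1000 reads it was 1.07.

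The lowest 5p ratio belonged to miR-40-5p, one of the 2 members under 20 reads. It had 2 reads (0.228 RPM) in enoxacin and 17 reads (1.59 RPM) in vehicle, a ratio of 0.143 (0.0161 to 0.603), while miR-40-3p had the highest 3p ratio. The other was miR-42-5p, with 2 reads in enoxacin and 6 in vehicle (0.406, 0.0401 to 2.27). Values this low are close to the resolution of the libraries.

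miR-35-5p had 16 reads in enoxacin and 36 in vehicle, so that its ratio was 0.541, and its interval (0.280 to 1.0003) just included 1. miR-41-5p, the most frequent 5p arm in vehicle, had 41 reads in enoxacin and 64 in vehicle (0.780, 0.514 to 1.17). miR-36-5p had 45 reads in enoxacin and 58 in vehicle (0.945, 0.625 to 1.42), and miR-39-5p had 31 in enoxacin and 37 in vehicle (1.02, 0.612 to 1.69). These last 3 did not differ between the libraries beyond counting error.

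The share of 5p reads per hairpin needs no scaling either. In 7 of the 8 hairpins the 5p ratio was below the 3p ratio, mir-37 being the exception. That count set no minimum of reads and includes mir-40 and mir-42, whose 5p arms had 19 and 8 reads over both libraries. Among nonmember hairpins with at least 20 reads on each arm, the minor arm (fewer reads in the 2 libraries together) was below the major arm in 30 of 43 (69.8%). mir-37 had 0.519% of its reads from the 5p arm in enoxacin (0.322 to 0.793%) and 0.0841% in vehicle (0.0273 to 0.196%). In mir-38 the share was 0.191% in enoxacin (0.0770 to 0.394%) and 0.545% in vehicle (0.342 to 0.825%). In mir-40 it was 0.136% in enoxacin (0.0165 to 0.491%) and 1.245% in vehicle (0.727 to 1.99%). These were the 3 member hairpins in which the 5p to 3p balance differed between the libraries beyond counting error. No such count was made over nonmember hairpins, so these shifts are not shown to be particular to the family. Nonmembers could shift too, such as mir-34, with 4.61% from the 5p arm in enoxacin (3.27 to 6.30%) and 46.0% in vehicle (43.8 to 48.3%).

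mir-41 stood out in both libraries for its high share of 5p reads. Its 5p arm took 4.24% of the hairpin's reads in enoxacin (3.06 to 5.71%) and 6.29% in vehicle (4.87 to 7.96%). In the other 7 hairpins the 5p share was at most 0.569% in enoxacin and 1.245% in vehicle. Over both libraries mir-41 had 105 5p reads, near the 103 of mir-36, but the fewest 3p reads of the family, 1880. The part of arm choice in its share was not tested. The ratio of 5p to 3p in mir-41 was 0.660 times as high in enoxacin as in vehicle, with an interval that just reached 1 (0.430 to 1.004). Over both libraries the median share of the minor arm was 0.346% for the 8 members, between 0.161% for mir-42 and 5.29% for mir-41. For the 39 nonmember hairpins with at least 1000 reads the median was 0.421%, between 0.0055% and 34.0%. All 8 members used the 3p arm, as did 22 of these 39.

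**Figure D4:**
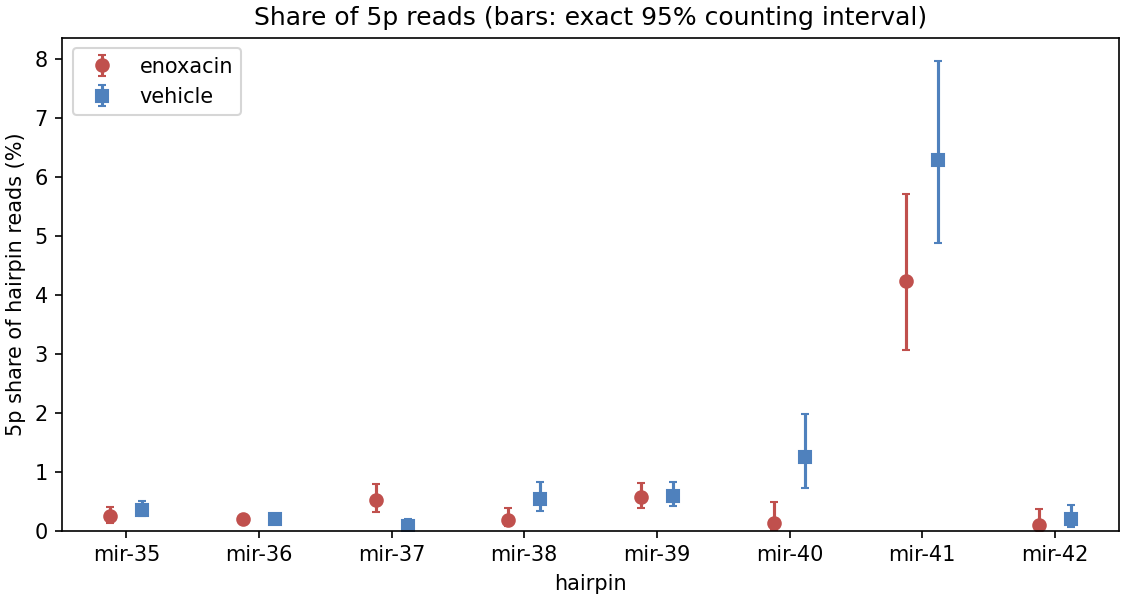
Share of each member hairpin's reads that came from the 5p arm (%), with circles for enoxacin, squares for vehicle and bars for the exact 95% counting interval. mir-41 has the highest share in both libraries, 4.24% in enoxacin and 6.29% in vehicle, and mir-37 is the hairpin where the share was higher in enoxacin beyond its interval.

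With reads of both arms summed per hairpin, the minor arms changed little. The hairpin ratios were 0.789 for mir-42, 0.794 for mir-35, 0.828 for mir-37 and 0.964 for mir-36. They were 1.07 for mir-39, 1.10 for mir-38, 1.16 for mir-41 and 1.31 for mir-40. No hairpin passed 1.5-fold.

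The spread of the family's 3p arms was within that of other abundant miRNAs. Over the 39 nonmember loci with at least 1000 reads the ratios lay between 0.437 and 2.73, with a median of 1.07 and quartiles of 0.917 and 1.27. Those most like the family, by the absolute difference of their log2 ratio from that of the summed 3p arms (-0.08) over the 2 libraries, were miR-67-3p, miR-72-5p and miR-81-3p. They differed from it by 0.02, 0.03 and 0.05. miR-67-3p had 1006 reads in enoxacin and 1315 in vehicle, a ratio of 0.931 (0.857 to 1.01). The ratio was 0.963 (0.935 to 0.992) for miR-72-5p and 0.976 (0.927 to 1.03) for miR-81-3p.

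The mir-51 to mir-56 family, the other abundant family known to be required in embryos, took 32.6% of miRNA reads in enoxacin (32.4 to 32.8%) and 30.7% in vehicle (30.6 to 30.9%). Its summed ratio was 1.07 (1.06 to 1.08), on the other side of 1 from the mir-35 family, but it stood at 0.983 under median-of-ratios scaling and at 0.975 under TMM. Its 12 loci had a median ratio of 1.07, with 1 higher (8.33%) and 2 lower (16.7%). Over all 152 loci compared, 13.2% were higher and 7.89% lower, and counts this small are not read as a trait of a list. The 4 most abundant of the 12, miR-52-5p, miR-54-3p, miR-56-3p and miR-53-5p, had ratios of 1.02, 1.31, 1.20 and 1.12. The timing miRNAs lin-4, let-7, mir-48, mir-84, mir-241 and mir-237, known for their appearance after hatching, had a summed ratio of 1.12 (1.09 to 1.14). It was 1.02 (0.996 to 1.05) under median-of-ratios scaling and 1.01 (0.989 to 1.04) under TMM, so that the intervals then included 1. Of the timing miRNAs, 1 of 9 compared loci was higher (11.1%), and the median was 1.18. lin-4-5p, miR-84-5p, miR-48-5p and let-7-5p had ratios of 1.18, 1.06, 0.885 and 1.48. Of the miRNAs known from muscle, intestine, neurons and epidermis, 6 of 9 loci were compared, 1 was higher (16.7%) and the median was 0.953. Their most abundant loci miR-1-3p, miR-228-5p, miR-60-3p and miR-124-3p had ratios of 0.902, 1.01, 2.26 and 0.847. The number of embryos or their share of the RNA was not measured, and its part in these ratios was not tested.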

How the data were processed

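Small RNA of whole worms was sequenced with 1 library per group. Per the submitters' processing notes, Bowtie2 and bedtools were used with build ce10. The sources used here give no versions or roles, and do not say how reads matching several loci were assigned. The authors deposited raw read counts per mature miRNA locus, RPM values (counts over 1 fixed total per library), their ratio and its log2. For the 204 loci with both counts above 0, the deposited log2 ratio equalled the value computed here within 1e-06. Positions were taken as 1-based.

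Ratios are enoxacin over vehicle with exact conditional binomial intervals, and shares have Clopper-Pearson intervals. Ratios between members or arms have exact conditional odds ratio intervals. Log2 ratios and the 1.5-fold criterion used a pseudocount of 0.5 reads. Median ratios and quartiles were computed from these log2 ratios and converted back, whereas ratios of single loci and of summed reads used no pseudocount. Intervals cover counting error only. The intervals and calls were run on simulated counts that held counting error only, which cannot tell how they behave under variation between libraries. Alternatives were scaling by the median of ratios, by TMM (edgeR 4.0.16) or by the sum of the miRNA table, minimums of 0 or 100 reads, a pseudocount of 1, other thresholds, and sums over fewer arms. All 16 members were named. Of other lists (mir-43 and mir-44, the mir-51 family, timing, other tissues) at most the 4 most abundant loci were named, besides the 3 most like the family among loci with at least 1000 reads. Members and lists were chosen with earlier results of these data known. WBcel235 (Ensembl) was used by hairpin name only, and all 8 matched. Python 3.11.15, scipy 1.17.1 and R 4.3.3 were used.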

Additional observations from a re-analysis of the deposited data

How the results depend on the processing

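With 1 library per group, no library could be left out and no paired analysis was possible. The summed log2 ratio of the family was -0.08, and stood at -0.21 under median-of-ratios scaling, -0.22 under TMM, -0.11 without miR-36-3p, -0.29 for the 5p arms only and -0.45 for the 5p arms without miR-37-5p (the last 2 were added after seeing the data). The median log2 ratio was -0.07 and ranged between -0.20 and -0.06 under the alternatives, except for the 3p arms only, at 0.02. The 1 higher and 1 lower member became 0 and 0 with a minimum of 100 reads or with arms summed per hairpin, since the called arms have few reads, and 2 and 3 at the lower threshold. With no minimum 2 members were lower, the second being miR-40-5p. Under each other scaling 2 were also lower, the second being miR-35-5p, and each of these scalings moves every log2 ratio in the table down. The share of all loci called was not counted under these alternatives, so these counts are not shown to be particular to the family. Of 64 values of single members under other scalings and a pseudocount of 1, 46 lay within their counting interval with the same call, 15 lay outside it, 3 (those of miR-35-5p) gained a call, and the 8 values of miR-37-5p and miR-38-5p kept theirs. The 5p arms are limited by depth.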
